A study of Mus musculus with 19 samples.

Results

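Cholesterol synthesis was followed through 8 enzyme genes, taken in the order in which their products act: Hmgcs1, Mvd, Idi1, Fdps, Fdft1, Sqle, Lss and Cyp51. They were picked by name as steps of the pathway, with earlier results of these data known. All 8 were found among the 48709 genes of the count files and among the 19286 genes tested. The libraries were RNA sequencing of microdissected hippocampal CA1 tissue from male wild-type mice of the C57B/6J strain, which were housed singly. Lipid nanoparticles loaded with oligonucleotides had been injected into the dorsal hippocampus on both sides, and water maze training followed. The young group (6 libraries, age 3 months) and the old control group (6 libraries, age 16.5 months) received control oligonucleotides. The old anti-miR-mix group (7 libraries, age 16.5 months) received inhibitors of 3 microRNAs, miR-148a-3p together with miR-146a-5p and miR-181a-5p. No animal was left uninjected and no young animal received the inhibitors, so every difference below lies between injected mice. Libraries of the control groups also carry the words anti-miR-mix in their titles, and the groups were read from the descriptions instead.

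Cells build cholesterol from acetyl-CoA. The early steps make mevalonate and isoprenoid units, the middle steps join these into squalene, and the late steps close the ring of lanosterol and trim it to cholesterol. The genes of the pathway are known as targets of the transcription factor SREBP-2, which is released from the endoplasmic reticulum when sterols are low, and they therefore often move together. The brain makes nearly all of its own cholesterol, because lipoprotein cholesterol from the blood does not pass the blood-brain barrier. Oligodendrocytes use much of it for myelin, and astrocytes are thought to supply neurons.

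The messages of the 8 enzymes did not pass the test in any comparison. With edgeR's quasi-likelihood test and Benjamini-Hochberg adjustment over all genes tested, 0 of 8 differed between old control and young mice, where 2.67% of all genes did. The count was 0 of 8 between old anti-miR-mix and old control mice, where 0.669% of all genes passed, and 0 of 8 between old anti-miR-mix and young mice, where 6.2% passed. None of the 8 reached an unadjusted p under 0.05 in any of the 3 comparisons, by edgeR or by DESeq2, and DESeq2 also called 0 of 8 in each. Over all genes, 3483, 2026 and 3785 of 19286 had an unadjusted p under 0.05 by edgeR, in the same order. The later counts at an unadjusted p are to be set beside these. What most of the enzymes did show was a shared difference from library to library within the groups, in part through old anti-miR-mix replicate 3. It is described after the values of each gene.

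CA1 pyramidal markers (Fibcd1, Wfs1 and Mpped1) were detected in all 3 groups, with a summed level of 592 to 852 CPM (read counts scaled to library size), beside 14.1 to 26.8 CPM for the CA3 markers and 77.8 to 161 CPM for the dentate granule markers. Library depth was 26653511 to 38908947 reads. Old control replicates 5 and 6 were closer to each other than any other pair within a group, with a chi-square per degree of freedom of 2.18 over well-covered genes against 6.10 for the next closest pair. Counting them as 1 library also left 0 of 8 enzymes called in each comparison. Because the tissue was sequenced in bulk, fewer cells of a type and less RNA per cell cannot be told apart.

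The treatment was aimed at microRNAs, so their sequences are shown first. The mature sequences are those of RefSeq for GRCm38.p6, written 5′ to 3′ with the seed (bases 2 to 8) in capitals, and the 3 seeds differ from each other.
miR-146a-5p: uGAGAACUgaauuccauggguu
miR-148a-3p: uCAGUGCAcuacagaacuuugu
miR-181a-5p: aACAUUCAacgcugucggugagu

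Matches to the complement of a seed were looked for in the longest annotated 3′UTR (GENCODE M21) of each enzyme gene, on the message strand only. The letters searched were AGTTCTC for miR-146a-5p, TGCACTG for miR-148a-3p and TGAATGT for miR-181a-5p. Such a match was present in 4 of 8 enzymes, Hmgcs1, Idi1, Fdft1 and Lss, while 35.0% of 15351 tested genes with a 3′UTR had at least 1. The UTRs of the enzymes differed widely in length, from 55 bases in Fdps and 275 in Sqle to 2411 in Lss, with a median of 1165 bases over all genes. Mvd, Fdps, Sqle and Cyp51 held no match, although that of Cyp51 was 1980 bases long. Lss held 4 matches, 3 of them to miR-146a-5p. The sites are printed below with 10 bases on each side, the match in capitals and its position counted from the first base of the 3′UTR, with 1 of the 3 miR-146a-5p sites of Lss shown. A match is a stretch of letters and does not show binding.
Hmgcs1, miR-146a-5p site at bases 1086 to 1092: ttcactagcaAGTTCTCtggatgattt
Idi1, miR-148a-3p site at bases 164 to 170: cccatatataTGCACTGatgtctgtaa
Fdft1, miR-181a-5p site at bases 1245 to 1251: ctcagccttcTGAATGTacgagttata
Lss, miR-146a-5p site at bases 740 to 746: atgtaactccAGTTCTCagggaaccca
Lss, miR-148a-3p site at bases 1435 to 1441: tagtgctttcTGCACTGgtatctccaa

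MicroRNAs are known to lower the messages they bind. Among the 4 enzymes with a match, the fitted log2 fold change of old anti-miR-mix against old control mice was -0.08 for Hmgcs1, -0.07 for Idi1, -0.05 for Fdft1 and 0.02 for Lss. Among those without a match it was -0.08 for Mvd, -0.01 for Fdps, -0.06 for Sqle and 0.00 for Cyp51. No enzyme of either set passed the test, and the lowest adjusted p over the 8 was 0.736.

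Levels along the pathway spanned a wide range. As RPKM, the reads scaled to library size and to the length of the longest coding transcript, the mean over the 19 libraries was 73.2 for Hmgcs1, 23.4 for Sqle, 20.2 for Cyp51, 14.5 for Fdft1, 11.5 for Lss, 8.14 for Mvd, 1.63 for Fdps and 0.626 for Idi1. Hmgcs1 stood clear of the rest, since its lowest library was at 54.8 RPKM and the highest library of Sqle at 25.9 RPKM. Sqle and Cyp51 overlapped over the libraries, and so did Fdft1 and Lss. When the level was divided by the length of all annotated exons of the gene instead, the middle of the order changed, with Cyp51 at 18.0, Fdft1 at 12.7, Sqle at 11.7, Mvd at 7.69 and Lss at 4.96 RPKM. Hmgcs1 remained highest, and Idi1 and Fdps remained lowest, at 0.541 and 0.534 RPKM.

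The low values of Fdps and Idi1 have a measured limit. Stretches of 50 bases, the read length, were looked for in transcripts of other genes in both directions, so that overlap with genes of the opposite strand counts. Of those of Fdps, 64.1% occur there. The genes concerned include processed pseudogenes of Fdps and Gm43738, a gene annotated over the same strand. The share was 28.6% for Idi1, 30.7% for Fdft1 and 12.6% for Hmgcs1, at most 4.13% for Lss and Cyp51, and 0 for Mvd and Sqle. That of Hmgcs1 was all with Gm48342, an antisense gene, and 19.9% of the stretches of Fdft1 were shared with Ctsb of the opposite strand. Reads of such stretches can be left out or divided when they are counted, and the options used are not given in the sources used here. The Fdps and Idi1 values are therefore uncertain as levels. The exons of Fdft1 overlap those of Ctsb on the opposite strand over 18.3% of their length. Ctsb, a lysosomal protease, had a median of 18990 reads per library against 1699 for Fdft1, and without strand in the counts the reads of that stretch cannot be told apart.

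Hmgcs1 (ENSMUSG00000093930, GRCm38 chr13:119690379-119708260, plus strand) makes HMG-CoA, an early intermediate of the pathway, and was the most abundant enzyme. Its level in log2 CPM had a lowest, median and highest value of 7.94, 8.04 and 8.15 in young mice, 7.90, 7.95 and 8.20 in old control mice, and 7.57, 7.99 and 8.13 in old anti-miR-mix mice. The groups overlapped, and the old anti-miR-mix libraries spread the most, with an SD of 0.20 against 0.08 in young mice. The fitted log2 fold change was -0.04 (SE 0.07) between old control and young mice, and -0.08 (SE 0.07) between old anti-miR-mix and old control mice. The 95% interval of the latter ran from -0.23 to 0.07, or from 14.6% lower to 5.13% higher.

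Mvd (ENSMUSG00000006517, chr8:122433601-122443422, minus strand) removes a carboxyl group from mevalonate diphosphate and so gives the first isoprenoid unit. Its log2 CPM was 3.71, 3.92 and 4.08 (lowest, median, highest) in young mice, 3.68, 3.87 and 3.96 in old control mice and 3.59, 3.76 and 3.90 in old anti-miR-mix mice. The medians descended in that order, but the ranges overlapped throughout. The fitted difference between old anti-miR-mix and young mice was -0.13 (SE 0.07), with an adjusted p of 0.335 by edgeR and a 95% interval from -0.27 to 0.02.

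Idi1 (ENSMUSG00000058258, chr13:8885501-8892451, plus strand) interconverts the 2 isomers of the isoprenoid unit. It was counted at 40 to 82 reads per library, and its log2 CPM was 0.91, 1.13 and 1.31 in young mice, 0.57, 0.98 and 1.20 in old control mice and 0.54, 0.81 and 1.21 in old anti-miR-mix mice. Here too the medians descended and the ranges overlapped. The fitted difference between old anti-miR-mix and young mice was -0.23 (SE 0.12), the lowest value of any enzyme in the 3 comparisons, with an adjusted p of 0.311 by edgeR and a 95% interval from -0.49 to 0.02. A drop of up to 28.7% was thus inside what these counts allow.

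Fdps (ENSMUSG00000059743, chr3:89093588-89101959, minus strand) builds farnesyl diphosphate, the branch point to sterols, dolichol, ubiquinone and prenylated proteins. It had 41 to 92 reads per library, and its log2 CPM was 0.69, 1.06 and 1.45 in young mice, 1.06, 1.26 and 1.44 in old control mice and 0.86, 1.13 and 1.55 in old anti-miR-mix mice. Fdps and Fdft1 had the largest positive values between old control and young mice. For Fdps this was 0.16 (SE 0.13), with a 95% interval from -0.11 to 0.44. For old anti-miR-mix against old control mice the estimate was -0.01 (SE 0.13), and its sign changed with the processing.

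Fdft1 (ENSMUSG00000021273, chr14:63145150-63179578, minus strand), squalene synthase, commits farnesyl diphosphate to sterols. Its log2 CPM was 5.56, 5.65 and 5.83 in young mice and 5.64, 5.82 and 5.89 in old control mice. The old anti-miR-mix libraries ranged from 5.40 to 5.87 with a median of 5.78, and 6 of the 7 lay at 5.73 or above. Between old control and young mice the fitted difference was 0.12 (SE 0.07), with an unadjusted p of 0.0951, an adjusted p of 0.373 by edgeR and a 95% interval from -0.02 to 0.25.

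Sqle (ENSMUSG00000022351, chr15:59315077-59331192, plus strand) oxidizes squalene to its epoxide and is a second point of control of the pathway. Its log2 CPM was 5.86, 6.00 and 6.15 in young mice, 5.90, 6.04 and 6.16 in old control mice and 5.67, 6.00 and 6.15 in old anti-miR-mix mice. Apart from the lowest library of the treated group, the ranges nearly coincided. The fitted differences were 0.03 (SE 0.07) between old control and young mice and -0.06 (SE 0.07) between old anti-miR-mix and old control mice. The 95% interval of the latter ran from -0.19 to 0.08.

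Lss (ENSMUSG00000033105, chr10:76531588-76557138, plus strand) folds the epoxide into lanosterol. Its log2 CPM was 5.61, 5.72 and 5.90 in young mice, 5.61, 5.76 and 5.81 in old control mice and 5.51, 5.76 and 5.94 in old anti-miR-mix mice. The difference between old anti-miR-mix and old control mice was fitted at 0.02 (SE 0.06), and its 95% interval ran from -0.10 to 0.14. Lss had the only estimate above 0 among the 8 enzymes in that comparison.

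Cyp51 (ENSMUSG00000001467, chr5:4081145-4104746, minus strand) removes a methyl group from lanosterol and opens the late part of the pathway. Its log2 CPM was 6.22, 6.40 and 6.50 in young mice, 6.22, 6.29 and 6.38 in old control mice and 6.10, 6.32 and 6.45 in old anti-miR-mix mice. Old control mice lay within the range of young mice. The fitted difference between old control and young mice was -0.08 (SE 0.06) with a 95% interval from -0.20 to 0.03, and that between old anti-miR-mix and old control mice was 0.00 (SE 0.05) with an interval from -0.11 to 0.11. The latter interval, from 7.64% lower to 7.74% higher, was the narrowest of the 8 in that comparison.

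**Figure D1:**
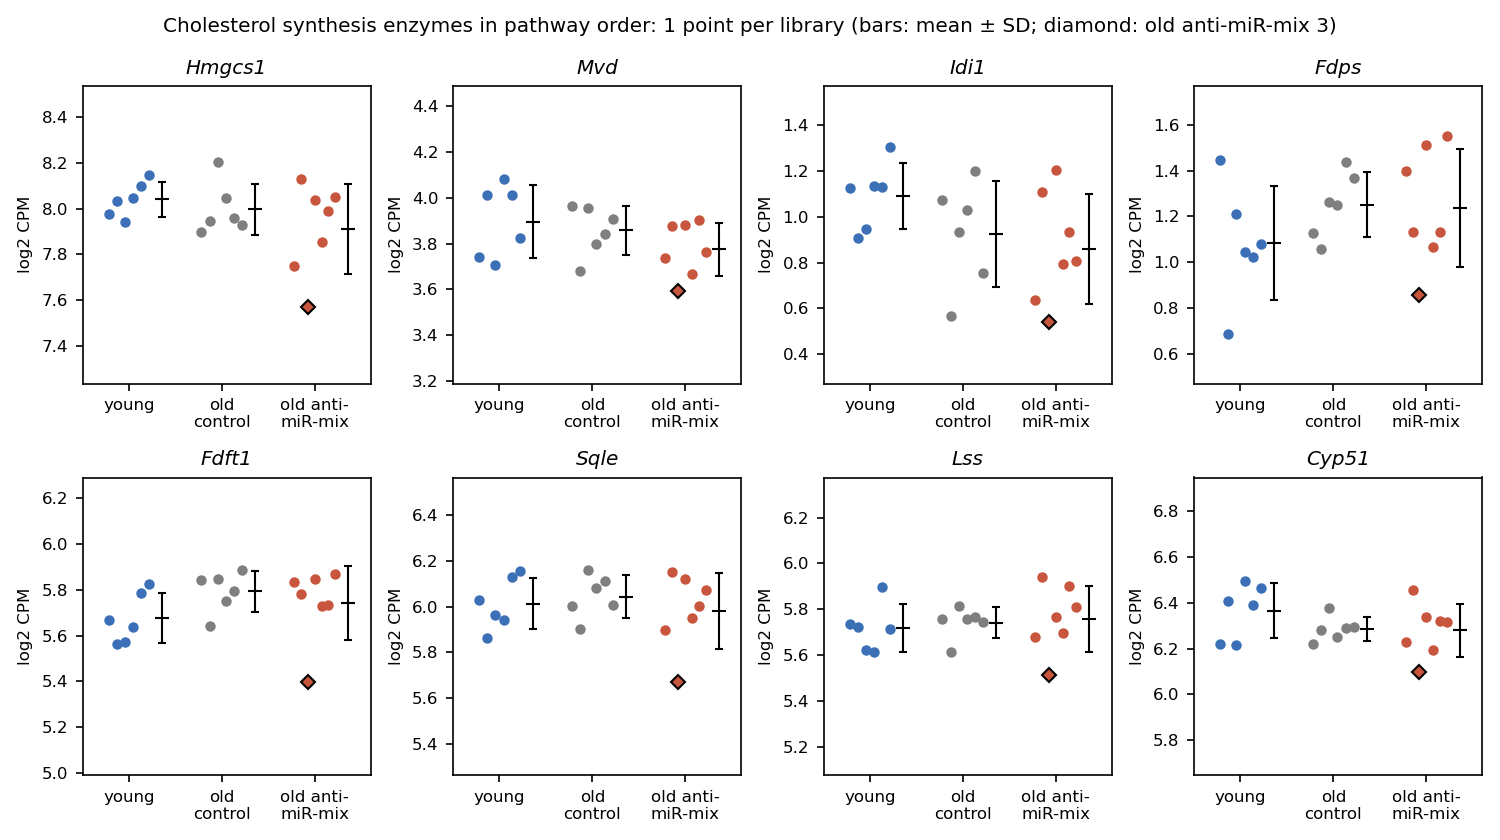
Level of each enzyme in log2 CPM (vertical axis, each panel spanning 1.3 log2 units) by group (6 libraries of young, 6 of old control and 7 of old anti-miR-mix mice), 1 point per library, with the mean and SD beside each group. The groups overlap for all 8 genes, and the library drawn as a diamond is the lowest of its group for every gene.

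Along the pathway, the estimates had no common sign. Between old control and young mice the estimates were 4 above 0 (Fdps, Fdft1, Sqle and Lss, which follow one another) and 4 below 0 (Hmgcs1, Mvd, Idi1 and Cyp51). Their median was -0.01 beside 0.01 over all genes tested. Between old anti-miR-mix and old control mice 7 of 8 were below 0, with a median of -0.05 beside 0.00 over all genes. That split rested on old anti-miR-mix replicate 3, without which 4 estimates were below 0 and 4 above 0, with a median of 0.00. It also changed with the correction number as a factor, where 4 lay on each side. This is a whole number from 1 to 4 for each library, worked out from how the deposited log2 values differ from those computed from the counts, and no label says what it stands for. The number 3 was carried by 0 old control libraries and by 3 old anti-miR-mix libraries, replicate 3 among them. Leaving out that replicate and fitting the number are therefore not independent checks. In old anti-miR-mix against young mice 5 of 8 were below 0, with a median of -0.06 beside 0.00 over all genes. For none of the 8 enzymes did 2 groups lie fully apart, while 2.54%, 0.498% and 2.42% of all genes did so in the 3 comparisons. Over the 8 enzymes, the 95% intervals reached from -0.42 to 0.44 on the log2 scale between old control and young mice and from -0.33 to 0.26 between old anti-miR-mix and old control mice, and the outer ends were those of Idi1 and Fdps.

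**Figure D2:**
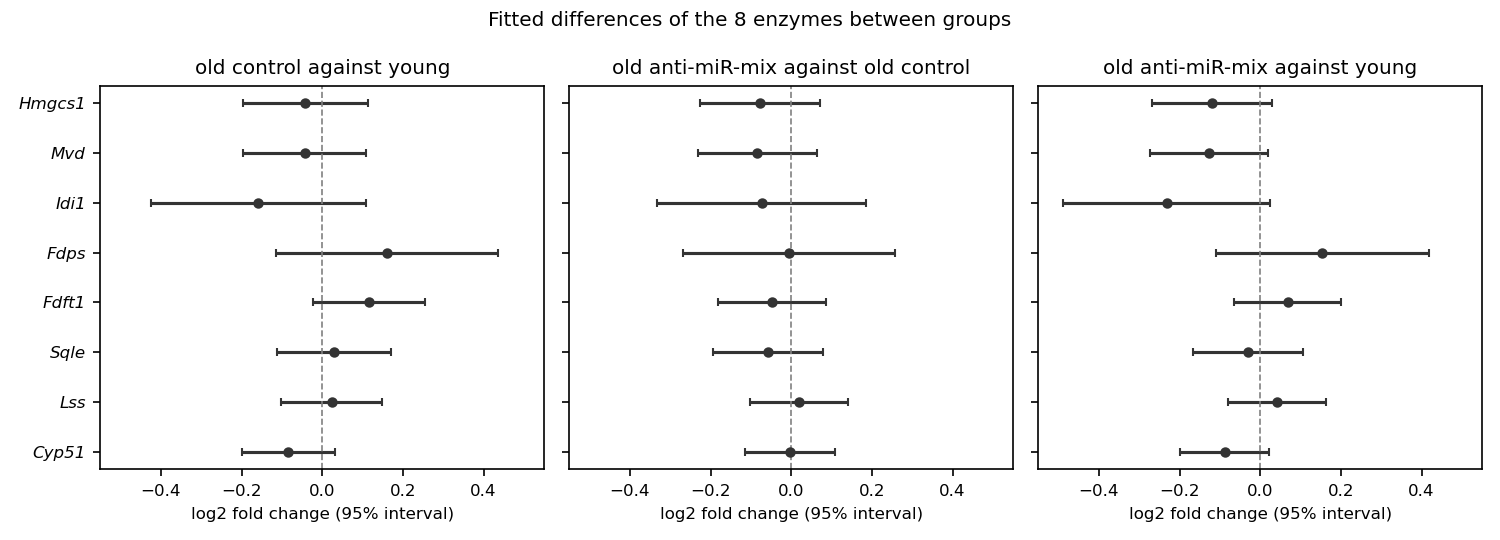
Fitted log2 fold change (horizontal axis) of the 8 enzymes in pathway order in the 3 comparisons, with bars for the 95% interval from the edgeR fit. Every interval includes 0, and those of Idi1 and Fdps, with at most 92 reads per library, are the widest.

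Within groups most of the enzymes, Fdps apart, went up and down together from library to library, in part through old anti-miR-mix replicate 3. Old anti-miR-mix replicate 3 had the lowest level of all 19 libraries for 7 of 8 enzymes, and for Fdps, the exception, young replicate 2 was lower. Each enzyme was standardised over the libraries and the 8 were averaged, and on this average the library stood at -2.19 SD. The next lowest was old control replicate 2 at -0.85, below its group's median for 8 of 8 enzymes, and the highest was old anti-miR-mix replicate 2 at 0.81. By group, the average was 0.11 ± 0.53 (SD, n = 6) in young mice, 0.11 ± 0.54 (SD, n = 6) in old control mice and -0.19 ± 1.05 (SD, n = 7) in old anti-miR-mix mice. The medians of the 3 groups were 0.10, 0.13 and 0.22. The spread between libraries of a group was thus larger than the distance between the groups. Old anti-miR-mix replicate 3 was also the deepest library, at 38908947 reads, with a TMM scaling factor of 0.999. With that factor applied, its summed oligodendrocyte markers lay at 6453 CPM, inside the range of its group (4867 to 7423 CPM). The part of depth in its low levels was not tested. The average of the enzymes had an r of -0.37 with depth over the 19 libraries and of -0.06 without this one. With the TMM factor it had an r of 0.37 and of 0.51 without this library, and with the correction number 0.20 and 0.39.

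**Figure D3:**
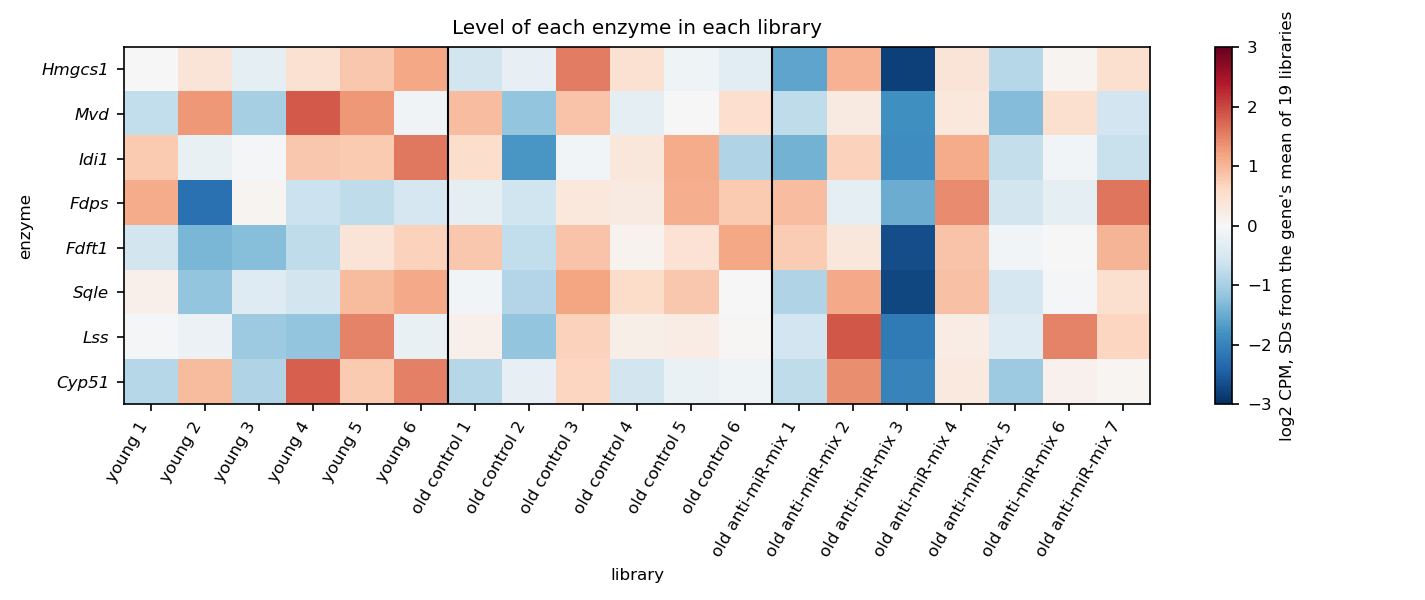
Level of each enzyme (rows, in pathway order) in each of the 19 libraries (columns, by group), as SDs from the gene's mean, with blue for low and red for high. Old anti-miR-mix 3 is low throughout its column, and old control 2 is the next lowest on average.

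Of the 28 pairs of enzymes, 26 had a correlation above 0 over the 19 libraries, with a median Pearson r of 0.52. The pairs share library and depth, and the values are descriptions. Hmgcs1 and Sqle had the highest r of 0.83, followed by Hmgcs1 and Cyp51 with 0.81, Fdft1 and Sqle with 0.77, and Sqle and Lss with 0.75. After the group means were subtracted, the median was 0.58, so the relation did not rest on the group means. Part of it came from 1 library, since without old anti-miR-mix replicate 3 the median was 0.36. Hmgcs1 and Cyp51 then had 0.74, Hmgcs1 and Sqle 0.69, and Fdft1 and Cyp51 0.00. Fdft1 also had only 0.08 with Hmgcs1, 0.07 with Mvd and 0.08 with Idi1, but 0.60 with Sqle and 0.46 with Lss. The group means were not subtracted from these values, and both steps together were not computed. Fdps stood apart from the others, with r from -0.16 (Mvd) to 0.64 (Fdft1), and its low count and shared sequence limit what its correlations can show.

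The 2 genes whose level ran closest to the average of the enzymes, Stard4 and Msmo1, belong to cholesterol metabolism. Among 12774 other genes with a mean of at least 100 reads, the highest r over the 19 libraries belonged to Stard4, a carrier that moves cholesterol between membranes, with 0.91. Msmo1, the sterol methyl oxidase that acts after Cyp51, was next with 0.90. Cfl2 (a cofilin of the actin cytoskeleton) had 0.87, Nap1l1 (a histone chaperone) 0.85, Polr2m (an RNA polymerase II subunit) 0.84, Dsc3 (a desmosomal cadherin) 0.84, and ENSMUSG00000097348, which has no symbol in the annotation used, 0.83. For comparison, the median r of these genes was -0.01 and their 95th percentile 0.55. Without old anti-miR-mix replicate 3, Stard4 had 0.83 and Msmo1 0.80, and they ranked 2 and 5. Dsc3 then fell to rank 121 with 0.65. All 11 other enzymes examined in the pathway had r above 0, and 5 of 11 lay above the 95th percentile. Without old anti-miR-mix replicate 3 that percentile was 0.51, and 4 of 11 lay above it. Of the known regulators, Insig1, which holds SREBP in the endoplasmic reticulum and is itself an SREBP target, was at 0.74. Srebf2, the message of SREBP-2, was at 0.37, and at 0.115 without old anti-miR-mix replicate 3. The rest of the genes of SREBP control were below 0, Scap at -0.48, Insig2 and Mbtps1 at -0.30, Mbtps2 at -0.24 and Srebf1 at -0.22. Without that replicate Srebf1 was at 0.07, and the others stayed below 0.

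**Figure D4:**
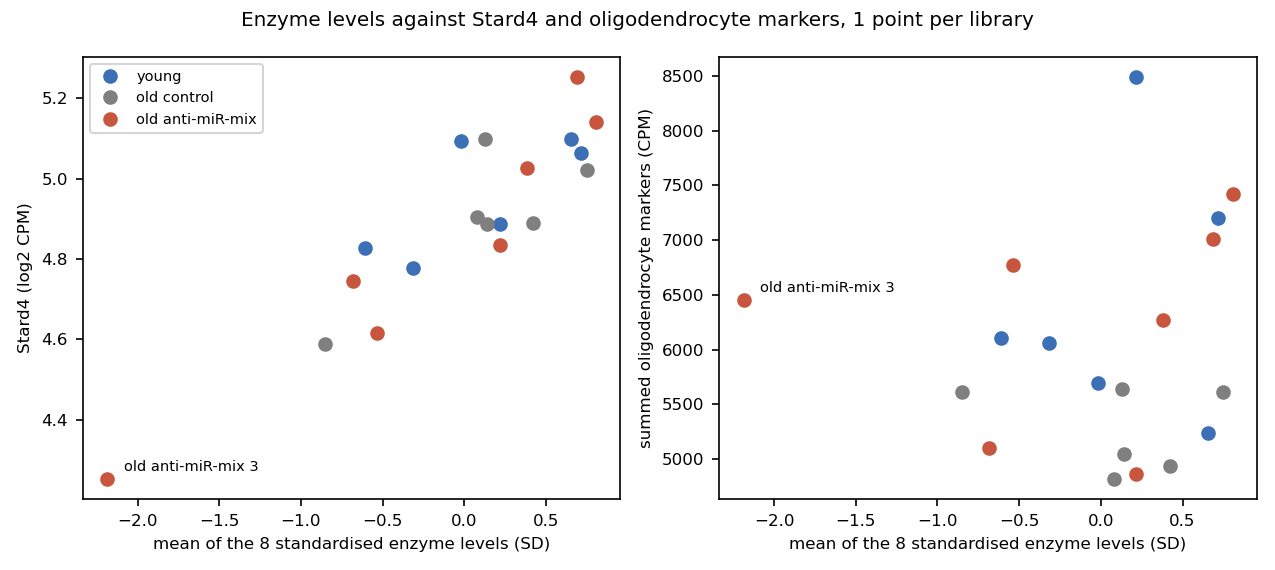
Left, Stard4 in log2 CPM and, right, the summed CPM of 9 oligodendrocyte markers, against the mean of the 8 standardised enzyme levels (horizontal axes, in SD), 1 point per library, colored by group. Both use the TMM factor. Stard4 rises with the enzymes (r = 0.91 over 19 libraries, 0.83 without old anti-miR-mix 3), and the oligodendrocyte markers show no such rise (r = 0.08).

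Promoters of the enzymes are shown next, as sequence. RefSeq promoter windows of GRCm38.p6 (250 bases before to 50 bases after the start site) were at hand for 5 of 8 enzymes, Hmgcs1, Mvd, Idi1, Lss and Cyp51. They were searched on both strands for CCAAT, the box bound by NF-Y, a factor known to act with SREBP, and for TCACNCCAC, the sterol response element. CCAAT was found in 5 of 5 windows, beside 37.4% of 32851 promoters of the same length. It was also found in windows of genes that ran against the enzymes over libraries, Mylip (r -0.56) and Fasn (r -0.31). The windows of Scap (r -0.48) held none. Whether these boxes bear on the levels was not tested. TCACNCCAC was found in Hmgcs1 alone, beginning 137 bases before the start site, beside 1.24% of all promoters. Sterol elements vary in their letters, and the lack of an exact match in the other 4 says only that these letters are not there. The whole window of Hmgcs1 and the last 150 bases of the other 4 are printed in the direction of the gene, with the matches in capitals (CCAAT on the opposite strand reads ATTGG). The Hmgcs1 window holds 4 CCAAT boxes and its sterol element lies between them.
Hmgcs1 (chr13:119690101-119690400, plus strand): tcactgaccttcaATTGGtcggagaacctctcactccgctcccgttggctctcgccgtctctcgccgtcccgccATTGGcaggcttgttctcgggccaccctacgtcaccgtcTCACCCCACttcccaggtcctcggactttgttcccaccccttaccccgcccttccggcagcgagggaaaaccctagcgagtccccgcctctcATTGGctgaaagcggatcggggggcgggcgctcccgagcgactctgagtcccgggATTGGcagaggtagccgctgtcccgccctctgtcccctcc
Mvd (chr8:122443373-122443522, minus strand): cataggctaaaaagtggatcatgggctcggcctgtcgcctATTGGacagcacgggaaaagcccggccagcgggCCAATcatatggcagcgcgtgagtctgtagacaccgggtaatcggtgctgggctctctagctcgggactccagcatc
Idi1 (chr13:8885506-8885655, plus strand): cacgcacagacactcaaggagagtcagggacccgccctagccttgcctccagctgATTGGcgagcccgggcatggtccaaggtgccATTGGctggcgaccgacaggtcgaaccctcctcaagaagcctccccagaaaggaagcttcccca
Lss (chr10:76531505-76531654, plus strand): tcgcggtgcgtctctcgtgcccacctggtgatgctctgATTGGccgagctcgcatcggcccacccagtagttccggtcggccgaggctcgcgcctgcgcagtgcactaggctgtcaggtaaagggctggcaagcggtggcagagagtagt
Cyp51 (chr5:4104648-4104797, minus strand): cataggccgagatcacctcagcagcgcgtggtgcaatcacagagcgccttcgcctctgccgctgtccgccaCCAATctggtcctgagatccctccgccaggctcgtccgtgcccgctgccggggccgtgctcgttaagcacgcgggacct

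Among the other enzymes of the pathway that were examined, none passed either. Of 11 other enzymes of cholesterol synthesis (Acat2, Mvk, Pmvk, Tm7sf2, Lbr, Msmo1, Nsdhl, Hsd17b7, Ebp, Sc5d and Dhcr7), edgeR and DESeq2 each called 0 in each comparison. At an unadjusted p under 0.05 edgeR had 1, 1 and 2 of 11 in the order of old control against young, old anti-miR-mix against old control, and old anti-miR-mix against young, and DESeq2 had 2, 1 and 2. Idi2, the paralog of Idi1, was below the count filter and was not tested.

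Among 7 genes of SREBP control, 1 rose and none fell between old control and young mice. This was Srebf1, which encodes SREBP-1 and is known mainly for fatty acid synthesis, at 0.28 (SE 0.06, adjusted p 0.0174 by edgeR). It was also higher in old anti-miR-mix than in young mice, by 0.34 (SE 0.06, adjusted p 0.000851), and 0 of 7 passed between old anti-miR-mix and old control mice by edgeR or DESeq2, with 0 at an unadjusted p under 0.05. Srebf2 was at -0.01 (SE 0.05) between old control and young mice and at -0.05 (SE 0.05) between old anti-miR-mix and old control mice, and Insig1 was at 0.09 (SE 0.08) and 0.02 (SE 0.07). In the list of fatty acid synthesis 1 of 9 passed, Elovl6, a fatty acid elongase, which fell by 0.21 between old control and young mice (SE 0.04, adjusted p 0.00423 by edgeR). Elovl6 was also lower in old anti-miR-mix than in young mice, at -0.25 (SE 0.04, adjusted p 0.000177 by edgeR). Between old anti-miR-mix and old control mice 0 of 9 passed. In the non-sterol branch of the pathway, which leads from farnesyl diphosphate to dolichol, ubiquinone and prenylated proteins, 0 of 9 passed in each comparison by edgeR or DESeq2, and 1, 2 and 0 of 9 had an unadjusted p under 0.05.

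The genes that handle cholesterol after it is made held further passing results. Between old control and young mice 1 of 6 genes of uptake and transport rose, Mylip, a ubiquitin ligase, by 0.30 (SE 0.07, adjusted p 0.0337 by edgeR). The call of Mylip ended with the correction number as a factor (0.31, adjusted p 0.0571 by edgeR), with old control replicates 5 and 6 counted as 1 (adjusted p 0.0598), and with any of 8 libraries left out. Of 10 genes of efflux, esterification and turnover, 0 passed in that comparison by edgeR or DESeq2, with 2 at an unadjusted p under 0.05. Between old anti-miR-mix and old control mice, Npc2, which carries cholesterol out of lysosomes, rose by 0.37 (SE 0.06, adjusted p 0.00773), as did Apoe, the main lipoprotein of the brain, by 0.32 (SE 0.07, adjusted p 0.0408), and Ch25h, a cholesterol hydroxylase, by 1.37 (SE 0.31, adjusted p 0.0413). With the correction number as a factor none of these 3 passed by edgeR. Npc2 was then at 0.29 (adjusted p 0.0825), Apoe at 0.25 (adjusted p 0.244) and Ch25h at 0.78, and on the deposited log2 values Ch25h was at 0.70 (adjusted p 0.064 by limma). Ch25h was low, at a mean log2 CPM of -0.15 in old control and 0.99 in old anti-miR-mix mice. The deposited values are built on log2(CPM + 1), and adding 1 shrinks differences at such low levels. The calls of Apoe and Ch25h also ended with any of 9 and of 10 libraries left out. Abca1, the efflux pump for cholesterol, was at 0.31 and did not pass by edgeR (adjusted p 0.0572), while it passed by DESeq2 (adjusted p 0.0114). Between old anti-miR-mix and young mice Npc2, Abca1, Apoe, Ch25h and Cyp27a1 rose, by 0.35, 0.47, 0.54, 1.94 and 0.52. Cyp46a1, the neuronal enzyme that turns over brain cholesterol, was at -0.03 (SE 0.04) between old control and young mice and at -0.05 (SE 0.04) between old anti-miR-mix and old control mice. Whether the enzymes and these genes differed in their response was not tested.

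Markers of other cell types moved between the groups while the enzymes showed no passing change. Of 9 oligodendrocyte markers, 4 fell between old control and young mice (Mog, Mag, Cnp and Cldn11), with a median of -0.32 over the 9, and their summed level was 5321 to 8405 CPM in young and 4801 to 5696 CPM in old control mice. In old anti-miR-mix against old control mice 0 of 9 passed by edgeR and 1 by DESeq2, with 6 at an unadjusted p under 0.05 and a median of 0.23. Of 8 microglia markers, 4 rose between old anti-miR-mix and old control mice and 7 between old anti-miR-mix and young mice, and their summed level was 356 to 454 CPM in young, 445 to 520 CPM in old control and 519 to 691 CPM in old anti-miR-mix mice. These sums per group were scaled to library size alone, while the oligodendrocyte sums set against the enzymes also used the TMM factor. No marker of these lists was at 0 in a whole group. Of 8 astrocyte markers, 2, 0 and 3 passed in the 3 comparisons. Between old control and young mice these went opposite ways, S100b at 0.30 and Gjb6 at -0.26, and between old anti-miR-mix and young mice all 3 rose. Of 6 neuron markers 0 passed in each by edgeR and 0, 0 and 2 by DESeq2, with 2, 1 and 2 at an unadjusted p under 0.05 by edgeR. Over the 19 libraries the average of the 8 enzymes had an r of 0.08 with the summed oligodendrocyte markers, and of 0.22 without old anti-miR-mix replicate 3. With the same average, single astrocyte markers had an r from -0.30 (Gfap) to 0.60 (Gja1), and neuron markers from -0.63 (Camk2a) to 0.49 (Snap25). CA1 markers lay from -0.61 (Fibcd1) to -0.12 (Wfs1), and microglia markers from -0.42 (Tmem119) to -0.08 (P2ry12). Without that replicate Gja1 was at 0.65, Camk2a at -0.61 and Snap25 at 0.17. Of the markers of other oligodendrocyte stages and of pyramidal cells, Gpr17, of oligodendrocyte precursors, fell by 0.91 between old control and young mice (adjusted p 3.22e-06 by edgeR) and by 0.69 between old anti-miR-mix and young mice (adjusted p 1.62e-05). Enpp6, of newly formed oligodendrocytes, fell by 0.74 (adjusted p 0.00588) and Coch, a CA3 marker, by 0.94 (adjusted p 0.0108) between old control and young mice by edgeR. Wfs1, a CA1 marker, fell by 0.36 between old anti-miR-mix and young mice (adjusted p 0.0366 by edgeR). The part of these cell types in the enzyme levels was not tested.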

How the data were processed

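Per the labels and the study's methods, the authors made polyadenylated RNA libraries, sequenced single-end reads of 50 bases, aligned them to mm10 with STAR 2.5.2b and deposited counts per gene from featureCounts (Subread 1.5.1). Strand and multi-mapping options are not given in the sources used here. The authors also deposited a table of normalized log2 values, used in 1 alternative. For each gene it differs from log2(CPM + 1) computed from the counts by a slope times a whole number per library, from 1 to 4 (largest residual 3.4e-08). No source used here names this number, here called the correction number.

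Symbols came from GENCODE M21 (48349 of 48709 IDs matched). A gene was tested where 50% or more of the libraries had 5 reads or more. Counts were tested with edgeR 4.0.16 (TMM, glmQLFit and glmQLFTest, 3 groups, no covariate), with an adjusted p threshold of 0.05 over all genes tested. Levels are log2 CPM with a prior count of 2, and intervals cover 95%. The fit was tested on simulated data. Alternatives used DESeq2 1.42.0, limma 3.58.1, other scalings, no filter, correction number terms, a replicate block and libraries left out. P-values measure the spread between libraries numbered as separate samples. Named were the 8 enzymes, list genes that passed in at least 1 comparison or were picked as controls of the pathway, and the 8 genes most like the enzymes. Some genes of these lists, and 1 of the most like genes, are not reported here. Members, lists and marker genes were chosen with earlier results of these data known. Over a depth of 26653511 to 38908947 reads, 3 reads is the limit that a count of 0 allows in a library.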

Additional observations from a re-analysis of the deposited data

Results flagged for a closer look

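In 24 groups of values (8 enzymes in 3 groups), 2 libraries lay far from the rest of their group by Dixon's criterion, which chance meets in about 1 of 20 groups. Fdft1 in old anti-miR-mix replicate 3 was at 5.40 log2 CPM, a gap of 0.702 of the group's range from the next library. Lss in old control replicate 2 was at 5.61 log2 CPM, a gap of 0.658 of the range. These 2 libraries were also the lowest on the average of the 8 enzymes.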

How the results depend on the processing

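The count of enzymes called was 0 of 8 in each comparison under all 10 alternatives. It was also 0 of 8 with each of the 19 libraries left out, in the comparisons that include its group. Of 544 values under those alternatives, 0 passed the adjusted threshold, 13 had an unadjusted p under 0.05, and the lowest adjusted p was 0.161. Estimates near 0 changed sign. Between old anti-miR-mix and old control mice, Fdps was at 0.0002 and Cyp51 at 0.0029 with upper-quartile scaling, Fdps at 0.0287, Cyp51 at 0.0132 and Fdft1 at 0.0069 with the correction number as a factor, Fdps at 0.0242 with old control replicates 5 and 6 as 1, and Fdps at 0.0090 and Cyp51 at 0.01 by limma on the deposited values. Between old control and young mice, Lss was at -0.0213 and Npc2 at 0.0308 with the correction number as a factor, and Srebf2 at 0.0032 with upper-quartile scaling. With a library left out, log2 fold changes between old anti-miR-mix and old control mice ranged from -0.0620 to 0.0542 for Fdps, from -0.0763 to 0.0029 for Fdft1, from -0.0121 to 0.0560 for Lss, from -0.0340 to 0.0234 for Cyp51 and from -0.0233 to 0.0691 for Insig1. Those between old control and young mice ranged from -0.0751 to 0.0010 for Mvd, from -0.0444 to 0.0047 for Npc2 and from -0.0283 to 0.0212 for Srebf2, and Sqle between old anti-miR-mix and young mice ranged from -0.0584 to 0.0224. The cause was not tested.

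Calls outside the enzymes were less steady. The correction number as a factor gave 9 calls in place of 129 over all genes between old anti-miR-mix and old control mice, 0 in place of 1 gene of uptake and transport, and 0 in place of 2 of efflux, esterification and turnover. Between old control and young mice it left 0 in place of 1 and gave 1 in place of 0. Each library was left out only in the comparisons that include its group. The Mylip call between old control (6 libraries) and young mice (6 libraries) was lost with any of 8 of these libraries left out. Between old anti-miR-mix (7 libraries) and old control mice (6 libraries), Apoe was lost with any of 9 and Ch25h with any of 10 of these left out. With the replicate block 0 of 8 enzymes were called in each comparison, and the calls over all genes were 650, 246 and 1191 in place of 514, 129 and 1196. Libraries of the same replicate number also shared the correction number in part: replicate 1 of each group carried 1 and replicate 6 of each group carried 4. Their deviations from the group means correlated from -0.17 to 0.21, with 6 of 18 pairs above 0.1, and 12 of 36 matched their own replicate number best. Whether libraries of the same replicate number belong together was not tested. In the same order DESeq2 called 897, 264 and 1531 genes, the fit with old control replicates 5 and 6 as 1 called 290, 28 and 1113, that without the count filter 323, 126 and 930, and that of only the 2 groups compared 768, 48 and 893. With 1 library left out, the counts over all genes ranged from 212 to 691, from 23 to 247 and from 892 to 1256. Depth limits Idi1 and Fdps most, with 40 to 92 reads per library.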

Other observations

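Several genes of the cholesterol lists ran against the 8 enzymes over the 19 libraries. They were chosen after their values were seen and are given as descriptions. Cyp7b1, which hydroxylates oxysterols, had an r of -0.81 with the average of the enzymes, and -0.67 without old anti-miR-mix replicate 3. Scarb1, a lipoprotein receptor, had -0.62 and -0.73, Mylip -0.56 and -0.44, and Scap, the escort protein of SREBP, -0.48 and -0.57. In fatty acid synthesis, Scd1 had 0.59 and 0.68 and Acaca 0.58 and 0.64, while Fasn had -0.31 and -0.29. Across all ranked genes the lowest r belonged to Lrmp with -0.82, Susd6 with -0.82 and Srl with -0.81, and without old anti-miR-mix replicate 3 they stood at -0.86, -0.83 and -0.77.

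The spread of 6 of 8 enzymes within groups was above that of most genes of like level. The within-group SD in log2 CPM was 0.14 for Hmgcs1, which lay above that of 86.6% of 731 genes within 0.5 log2 units of its level. The percentages were 85.1% for Sqle, 83.5% for Fdft1, 78.3% for Lss, 75.3% for Cyp51 and 64.0% for Mvd, and 46.0% for Fdps and 30.5% for Idi1. All of these SDs include old anti-miR-mix replicate 3, the lowest library of its group for every enzyme, and the spread without it was not computed.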
